A study of Mus musculus with 6 samples.

Results

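The genes described here are 10 genes that developing neurons use to build their cytoskeleton and to start neuronal gene expression: Dcx, Stmn1, Stmn2, Stmn3, Tubb3, Tubb2a, Tubb2b, Sox4, Sox11 and Marcksl1. They are 10 of the 20234 genes in the deposited table and were chosen by name as genes linked to newborn neurons. Each was followed through the cell classes of CA1, through cells with and without Dcx, and between treatments. CA1 tissue came from 6 male C57Bl6 mice aged 28 days, 3 of which (mice 1, 3 and 5) had received 1 injection of placebo and 3 (mice 2, 4 and 6) 1 injection of recombinant human erythropoietin (rhEPO, 5000 IU/kg), and all were killed 6 h later. The tissue was dissociated with papain, and single cells were sequenced by Drop-seq, which tags each captured mRNA with a cell barcode and a molecular identifier (UMI), so that PCR copies of an mRNA are counted once. The labels name no transgene or deletion, and 1 library stands for each mouse. The labels add D1 (mice 1, 2 and 3) or D2 (mice 4, 5 and 6) to each mouse without saying what it means.

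Newborn neurons have to push out a leading process and an axon, and their microtubules are assembled, bundled and severed all the while. Doublecortin (Dcx) stabilises microtubules in migrating neuroblasts, stathmins (Stmn1, Stmn2 and Stmn3) bind free tubulin and promote disassembly, and Tubb3, Tubb2a and Tubb2b encode the beta-tubulin itself. Marcksl1 ties the membrane to actin filaments, and the SOXC transcription factors Sox4 and Sox11 switch on neuronal genes, Dcx and Tubb3 among their known targets. Dcx and Sox11 are commonly used to mark immature neurons, whereas several of the other genes stay on in mature neurons or are found in glia.

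Of 6000 barcodes, 973 had over 1000 and up to 8000 detected genes and at most 40% mitochondrial (mt-) UMIs and were retained, with 43 to 271 cells, 204479 to 1948490 UMIs and a median of 4088 to 4924 UMIs per cell in the 6 mice. The median mt- share ran from 3.58% to 18.3% over the mice. Clustering without the 10 genes gave 12 clusters in 7 classes: 619 glutamatergic-like, 133 oligodendrocyte-like, 78 astrocyte-like, 53 GABAergic-like, 39 endothelial-like, 33 oligodendrocyte precursor (OPC)-like and 18 microglia-like cells. Defining markers were present in each class, but none was among the 10 leading genes of glutamatergic-like clusters 0, 2, 4 and 9. The GABAergic-like cluster was also led by Rgs5 and Myh11 of vessel walls. Of the 6 glutamatergic-like clusters, 1 was led by ribosomal and housekeeping genes and held cells of mice 1 and 4 only. These mice also shared 26 retained barcode sequences, which no other pair of mice did. All 26 fell into the same class in both, their profiles correlated with a median r of 0.763 against 0.305 for other pairs of cells, and they held 45.3% of the UMIs of placebo mouse 1 and 6.60% of those of EPO mouse 4, so values are given with and without them where they matter.

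The 10 genes differed widely in how often they were counted and in which cells carried them. The retained cells held 4448 UMIs of Stmn2, 4364 of Tubb2a, 2986 of Stmn3, 1157 of Stmn1, 1020 of Tubb3, 547 of Marcksl1, 420 of Sox4, 339 of Tubb2b, 141 of Dcx and 25 of Sox11. Glutamatergic-like cells held 73.4% of the UMIs of all genes. Their share was higher for Stmn3 (93.7%), Stmn2 (90.7%), Tubb2a (90.3%), Tubb3 (89.9%) and Sox11 (84%), and lower for Dcx (67.4%), Sox4 (62.1%), Stmn1 (59.5%), Marcksl1 (46.3%) and Tubb2b (41.0%). By these shares, which also follow the size of a class, the genes fell into a group held nearly all by neurons, a group shared with glia, and Dcx and Sox11, which had the fewest UMIs. Tubb2a of the first group was also counted in astrocyte-like cells, which held 3.09% of its UMIs beside 4.19% of those of all genes.

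**Figure D1:**
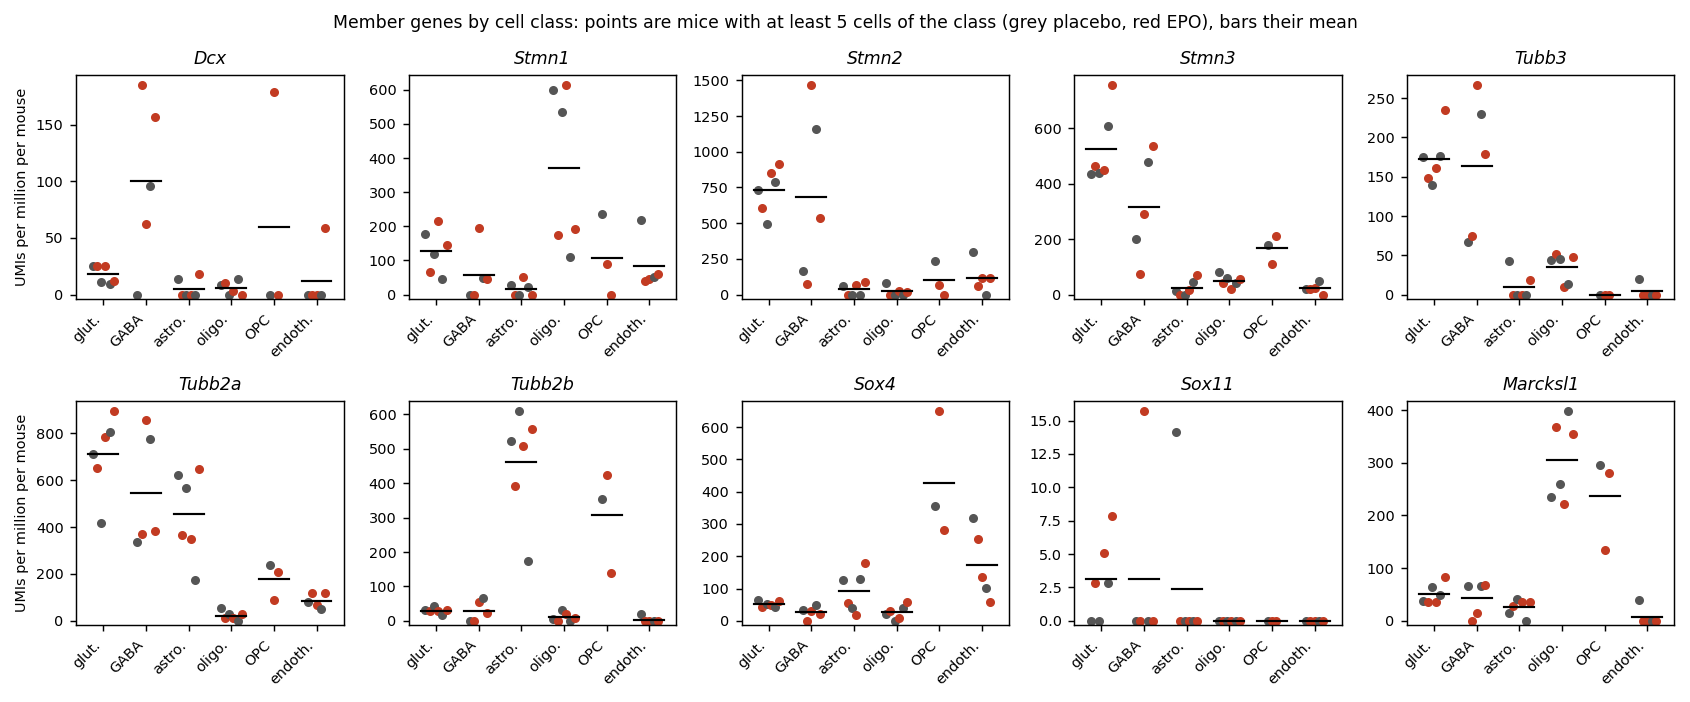
CPM (y axis, UMIs per 1e6 UMIs of the class in a mouse) of each gene in 6 cell classes (x axis). Points are mice with at least 5 cells of the class, grey for placebo and red for EPO, and bars are their mean. Stmn2, Stmn3 and Tubb3 stood highest in the 2 neuronal classes, Stmn1 and Marcksl1 in oligodendrocyte-like cells, Tubb2b in astrocyte-like and Sox4 in OPC-like cells.

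Levels are given in CPM, the count of UMIs per 1e6 UMIs of the cells of 1 class in 1 mouse. They are compared between classes for a gene and not between genes. Stmn2, which is carried into growth cones and needed to rebuild axons, stood at 730 ± 159 CPM (SD, n = 6 mice) in glutamatergic-like cells and at 681 ± 612 CPM (n = 5) in GABAergic-like cells. In the latter it ranged from 74.0 to 1467 CPM, so that the neuronal classes overlapped. In oligodendrocyte-like cells it stood at 21.7 ± 32.8 CPM (n = 6), and 3 of 6 mice had no UMI. Stmn3 was at 526 ± 131 CPM in glutamatergic-like, 316 ± 192 CPM in GABAergic-like and 50.0 ± 20.7 CPM in oligodendrocyte-like cells. Tubb3, the neuronal beta-tubulin, followed the same order at 173 ± 33.9, 163 ± 90.3 and 35.4 ± 18.5 CPM, and its lowest GABAergic-like mouse (66.8 CPM) lay above its highest oligodendrocyte-like mouse (51.0 CPM). Tubb2a stood at 710 ± 165, 543 ± 250 and 22.7 ± 18.9 CPM in the same classes.

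Astrocyte-like cells divided the tubulins. Tubb2a reached 455 ± 187 CPM and Tubb2b 461 ± 158 CPM there (n = 6 each), whereas Tubb3 was far below its neuronal level at 10.1 ± 17.4 CPM, with 4 UMIs in 78 cells. Tubb2b was counted at 29.8 ± 8.49 CPM in glutamatergic-like cells and at 306 ± 148 CPM (n = 3) in OPC-like cells, where the lowest of 3 mice (140 CPM) lay above the highest glutamatergic-like value (42.8 CPM). The OPC-like values rest on few UMIs, 40 in the 33 cells of the class, and the lowest mouse (EPO mouse 6) had 5 such cells. Tubb2a (chr13:34074274-34078007, minus strand, GRCm38) and Tubb2b (chr13:34126748-34130466, minus strand) are related genes with 3 annotated genes between them. Of the 50-base windows in the last 500 bases of the Tubb2a transcript, 42.4% also occur in Tubb2b, the pseudogene Tubb2a-ps2 or Tubb4a, whereas no window of the Tubb2b end occurs elsewhere, so the Tubb2a counts are uncertain in cells with much Tubb2b. The part of shared windows in the astrocyte value of Tubb2a was not tested.

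The RefSeq promoters of 7 of the 10 genes were matched by symbol, and Stmn1, Stmn2 and Tubb2b were not. Those of 3 genes held mostly by neurons are shown because the genes stood high in the same cells, that of Sox4 for contrast, and that of Dcx as the gene that defines the cell sets compared further on. Each is the stretch of 250 bases before the RefSeq start (GRCm38.p6), written 5' to 3' on the strand of the gene, at chr2:181314501-181314750 (minus strand) for Stmn3, chr8:123411303-123411552 (plus) for Tubb3, chr13:34078009-34078258 (minus) for Tubb2a chr13:28953700-28953949 (minus) for Sox4 and chrX:143933220-143933469 (minus) for Dcx. Capitals mark the TATA box (TATAAA on either strand), the CCAAT box (also on either strand) and the GC box (GGGCGG likewise), and where boxes overlap their capitals run together. By GENCODE M21, which places some starts further upstream, the last 129 bases of the Tubb3 window, 92 of the Dcx window and 14 of the Sox4 window lie inside the gene.
Stmn3: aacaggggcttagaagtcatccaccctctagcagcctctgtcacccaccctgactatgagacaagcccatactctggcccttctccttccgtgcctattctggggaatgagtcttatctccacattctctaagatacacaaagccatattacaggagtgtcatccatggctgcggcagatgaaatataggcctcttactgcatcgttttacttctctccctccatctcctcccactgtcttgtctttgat
Tubb3: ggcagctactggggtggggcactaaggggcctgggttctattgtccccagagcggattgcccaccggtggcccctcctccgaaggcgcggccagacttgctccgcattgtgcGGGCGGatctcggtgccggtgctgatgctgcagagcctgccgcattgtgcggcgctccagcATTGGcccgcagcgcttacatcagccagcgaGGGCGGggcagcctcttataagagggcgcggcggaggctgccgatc
Tubb2a: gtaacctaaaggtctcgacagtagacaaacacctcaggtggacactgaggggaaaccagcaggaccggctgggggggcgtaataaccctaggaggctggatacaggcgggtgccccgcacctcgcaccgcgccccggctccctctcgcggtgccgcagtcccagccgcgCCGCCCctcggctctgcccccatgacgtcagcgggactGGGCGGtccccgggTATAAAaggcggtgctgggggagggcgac
Sox4: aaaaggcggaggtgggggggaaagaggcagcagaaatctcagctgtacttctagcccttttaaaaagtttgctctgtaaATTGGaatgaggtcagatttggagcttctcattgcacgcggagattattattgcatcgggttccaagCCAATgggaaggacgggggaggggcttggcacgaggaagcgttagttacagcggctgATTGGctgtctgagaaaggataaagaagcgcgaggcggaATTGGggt
Dcx: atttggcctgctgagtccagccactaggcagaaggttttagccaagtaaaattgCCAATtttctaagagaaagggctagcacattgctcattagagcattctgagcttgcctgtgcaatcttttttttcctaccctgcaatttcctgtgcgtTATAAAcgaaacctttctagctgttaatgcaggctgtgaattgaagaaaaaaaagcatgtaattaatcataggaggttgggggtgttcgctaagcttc
The promoters did not share a common make-up. Tubb3 and Tubb2a had 68.0% and 68.4% G and C, with 21 and 22 CpG, and Stmn3 and Dcx had 48.8% and 41.6%, with 3 CpG each, against a median of 52.4% and 6 CpG over 32851 promoters of the same length. GGGCGG occurred 2 times each in Tubb3 and Tubb2a and in 32.7% of all promoters. TATAAA occurred 1 time each in Tubb2a and Dcx and in 12.4% of all promoters. CCAAT occurred 4 times in Sox4, 1 time each in Tubb3 and Dcx, and in 33.8% of all promoters, and none of the 3 motifs occurred in these 250 bases of Stmn3. These matches describe letters and not bound factors.

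Against oligodendrocyte-like cells of the same 6 mice, glutamatergic-like cells had higher Tubb2a (log2 fold change 4.58, SE 0.29, adjusted p = 2.6e-20), Stmn2 (4.34, SE 0.31, adjusted p = 1.2e-18), Stmn3 (3.12, SE 0.25, adjusted p = 1.1e-16) and Tubb3 (2.16, SE 0.29, adjusted p = 4.6e-09) by edgeR's quasi-likelihood test with Benjamini-Hochberg adjustment. Marcksl1 (-2.94, SE 0.21, adjusted p = 9.7e-19) and Stmn1 (-1.71, SE 0.19, adjusted p = 2.7e-11) were lower. Thus 6 of the 7 genes tested were called, 4 higher and 2 lower, where 64.6% of 4740 genes tested were called, 35.1% higher and 29.5% lower. Sox4 missed the threshold (0.83, SE 0.39, adjusted p = 0.057) and passed it in 3 of 10 other settings. Dcx, Tubb2b and Sox11 had too few UMIs to be tested here. All 6 calls were kept in each of 13 alternatives.

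The shared members of these families split in the same contrast. Among 6 tested relatives of the 10 genes, 3 were higher and 3 lower in glutamatergic-like cells, with the doublecortin-like kinase Dclk1 higher (3.15) and the oligodendrocyte-rich tubulin Tubb4a (-3.32), Stmn4 (-2.08) and Marcks (-1.66) lower. Of 17 other microtubule and growth cone genes tested, 10 were higher and 4 lower, and those with the smallest p were the growth cone proteins Gap43 (4.76) and Basp1 (4.66), the motor Kif5c (3.86) and the dendritic Map2 (3.15), all on the log2 scale. Their median was 2.25, beside 0.12 over all genes tested. Unlike the 10 genes, the genes of these lists were not kept out of the clustering, so their values describe the classes that the clustering drew.

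Stmn1 and Marcksl1 were higher in oligodendrocyte-like than in glutamatergic-like cells. Stmn1 stood at 599.5, 534 and 614 CPM in oligodendrocyte-like cells of placebo mice 1 and 3 and EPO mouse 4, and at 110, 174 and 191 CPM in placebo mouse 5 and EPO mice 2 and 6, a gap that did not follow treatment. Its mean was 370.3 ± 236 CPM there and 127 ± 65.1 CPM in glutamatergic-like cells, and 2.44% of the windows at its transcript end are shared with the pseudogene Gm11223. Marcksl1 was steadier, at 306 ± 75.9 CPM in oligodendrocyte-like, 237 ± 88.9 CPM in OPC-like (n = 3) and 50.9 ± 19.5 CPM in glutamatergic-like cells. Each OPC-like mouse lay above each glutamatergic-like mouse, but the OPC-like class held only 31 Marcksl1 UMIs in 33 cells.

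Sox4 was highest in OPC-like cells, though on few UMIs, 53 in 33 cells, of which mice 1, 4 and 6 had 6, 14 and 5. Their 3 mice with at least 5 such cells had 354, 649 and 280 CPM (mice 1, 4 and 6), and the mean of 428 ± 195 CPM compared with 174 ± 109 CPM in endothelial-like (n = 5), 92.1 ± 63.3 CPM in astrocyte-like, 52.1 ± 9.0 CPM in glutamatergic-like and 26.9 ± 20.9 CPM in oligodendrocyte-like cells (n = 6 each). No OPC-like mouse fell among the glutamatergic-like ones, which spanned 42.1 to 63.9 CPM, whereas the OPC-like and endothelial-like ranges overlapped. In these 3 mice, Sox4 (3.93, SE 0.55, adjusted p = 1.2e-07) and Tubb2b (4.30, SE 0.58, adjusted p = 4.3e-08) were higher and Stmn1 (-2.63, SE 0.59, adjusted p = 0.0003) lower in OPC-like than in oligodendrocyte-like cells, while Marcksl1 did not pass the test (-0.63, SE 0.52, adjusted p = 0.38), all log2 fold changes by edgeR. Of 1494 genes tested in this contrast, 34.2% were called, 13.5% higher and 20.7% lower. Among the other SOX genes, Sox2 of neural progenitors was also higher (3.51), Sox8 (0.79) and Sox10 (-0.35) of the oligodendrocyte lineage did not pass the test, and Sox6 was among the 10 genes that led the cluster. An antisense gene, Gm26735, overlaps Sox4 and is counted in the same table.

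Dcx was thinly spread. Of the 973 retained cells, 99 had a Dcx UMI (10.2%, exact 95% interval 8.35 to 12.2%), 29 of them had at least 2, and no cell had over 6. In glutamatergic-like cells, 72 of 619 were Dcx-positive (11.6%, 9.21 to 14.4%), in GABAergic-like cells 15 of 53 (28.3%, 16.8 to 42.3%) and in OPC-like cells 5 of 33 (15.2%, 5.11 to 31.9%). All 5 of these OPC-like cells came from EPO mouse 4, where they were 5 of 14 (35.7%), against 0 of 6 in placebo mouse 1 and 0 of 5 in EPO mouse 6, which by the limit of 3 counts allow shares of up to 50% and 60%. In oligodendrocyte-like cells, which should lack the gene, 4 of 133 (3.01%, 0.825 to 7.52%) were positive at a median of 5319 UMIs, close to the median of 5233 UMIs in glutamatergic-like and 4818 UMIs in GABAergic-like cells. The intervals cover counting error only. Pooled over mice, the neuronal shares thus lay above the share in cells taken as background, but this did not hold in each mouse. In placebo mouse 5, 8 of 137 glutamatergic-like cells (5.84%) and 1 of 17 oligodendrocyte-like cells (5.88%) were positive. The barcodes that were not retained held Dcx at 17.1 CPM in all, beside 18.7 CPM in the pooled glutamatergic-like cells.

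**Figure D2:**
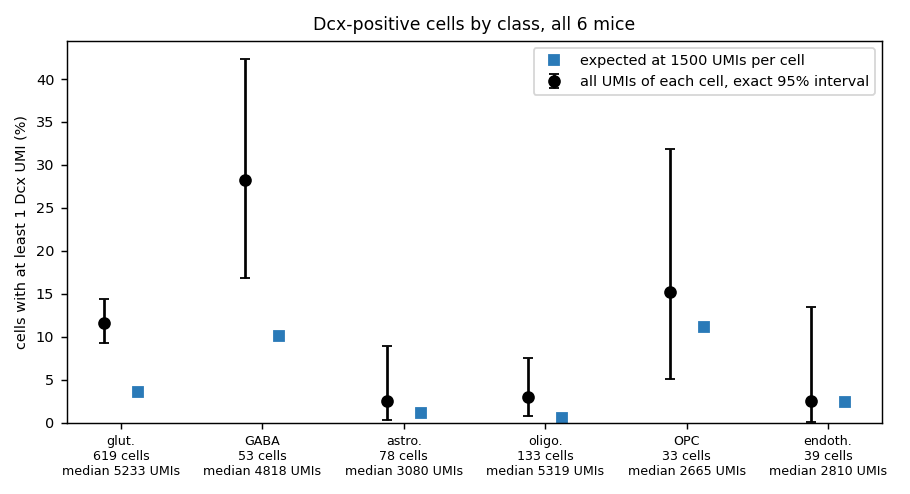
Cells with at least 1 Dcx UMI (y axis, percent) by class (x axis, with the number of cells and their median UMIs), all 6 mice. Black points use all UMIs of a cell with exact 95% intervals, and blue squares give the share expected at 1500 UMIs per cell, which was 10.1% in GABAergic-like, 3.59% in glutamatergic-like and 0.556% in oligodendrocyte-like cells.

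At an equal depth of 1500 UMIs per cell, which every retained cell reached, the expected Dcx-positive share was 11.2% in OPC-like, 10.1% in GABAergic-like, 3.59% in glutamatergic-like, 1.16% in astrocyte-like and 0.556% in oligodendrocyte-like cells. Per mouse, GABAergic-like cells held 0, 185, 62.8, 95.6 and 157 CPM of Dcx in mice 1, 2, 4, 5 and 6, and glutamatergic-like cells of the same mice 25.6, 25.4, 24.8, 9.56 and 12.2 CPM. GABAergic-like cells were higher in 4 of 5 mice. Placebo mouse 1 had 7 such cells, so its count of 0 allows, by the limit of 3 counts, up to 42.9% positive cells. The difference was 2.47 on the log2 scale (SE 0.46, edgeR adjusted p = 2.7e-06, n = 5 mice), and Dcx was the only 1 of 9 genes tested that was called, where 12.6% of 6232 genes were called and 4.78% were called higher in GABAergic-like cells. It stood at 2.76 (edgeR adjusted p = 0.00029, n = 3 mice) with the cluster of 45 cells found without integration, which vessel wall genes did not lead. Placebo mouse 1, with 4 cells in that cluster, was not among these 3 mice. By limma the difference was 1.49 (adjusted p = 0.36), and Dcx had too few UMIs to be tested without the shared barcodes.

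The other 8 genes tested between the neuronal classes ranged from -0.68 for Stmn3 to 0.80 for Tubb2b on the log2 scale, with adjusted p of 0.15 to 0.97. Their median with Dcx included was -0.32, beside -0.13 over all genes. Among 6 relatives tested, Stmn4 was lower in GABAergic-like cells (-1.27, SE 0.34, adjusted p = 0.0023). The RNA-binding protein Elavl2, 1 of 13 listed markers of newborn neurons and the only 1 with enough UMIs, was higher (2.75), and all 6 pyramidal markers of CA1 were lower, Pou3f1 (-5.08) and Wfs1 (-3.90) among them.

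Within the glutamatergic-like class, Dcx stood highest in another cluster than Stmn1, Stmn2, Stmn3 and Tubb3. Pooled over mice it was highest in cluster 0 (51.5 CPM) and cluster 2 (32.5 CPM) and stood at 5.63 to 17.4 CPM in clusters 3, 4, 5 and 9. Over mice with at least 5 cells of the cluster it averaged 48.8 ± 13.1 CPM (n = 6) in cluster 0, 24.6 ± 22.8 CPM (n = 6) in cluster 2 and 20.6 ± 11.6 CPM (n = 5) in cluster 5, so that clusters 2 and 5 did not differ beyond their spread. Sox11 had 9 of its 21 UMIs in this class in cluster 5, and Sox4 varied little, at 38.6 to 62.8 CPM. Stmn2 was, pooled likewise, highest in cluster 5 (1481 CPM), then in clusters 9 (963 CPM) and 3 (821 CPM), and stood at 199 to 336 CPM in clusters 0, 2 and 4. Stmn3 and Tubb3 kept the same split, with 645 to 913 CPM against 119 to 146 CPM for Stmn3 and 194 to 318 CPM against 52.4 to 93.9 CPM for Tubb3. Stmn1 stood out in cluster 5 at 355 CPM, against 30.7 to 174 CPM in the other 5 clusters.

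**Figure D3:**
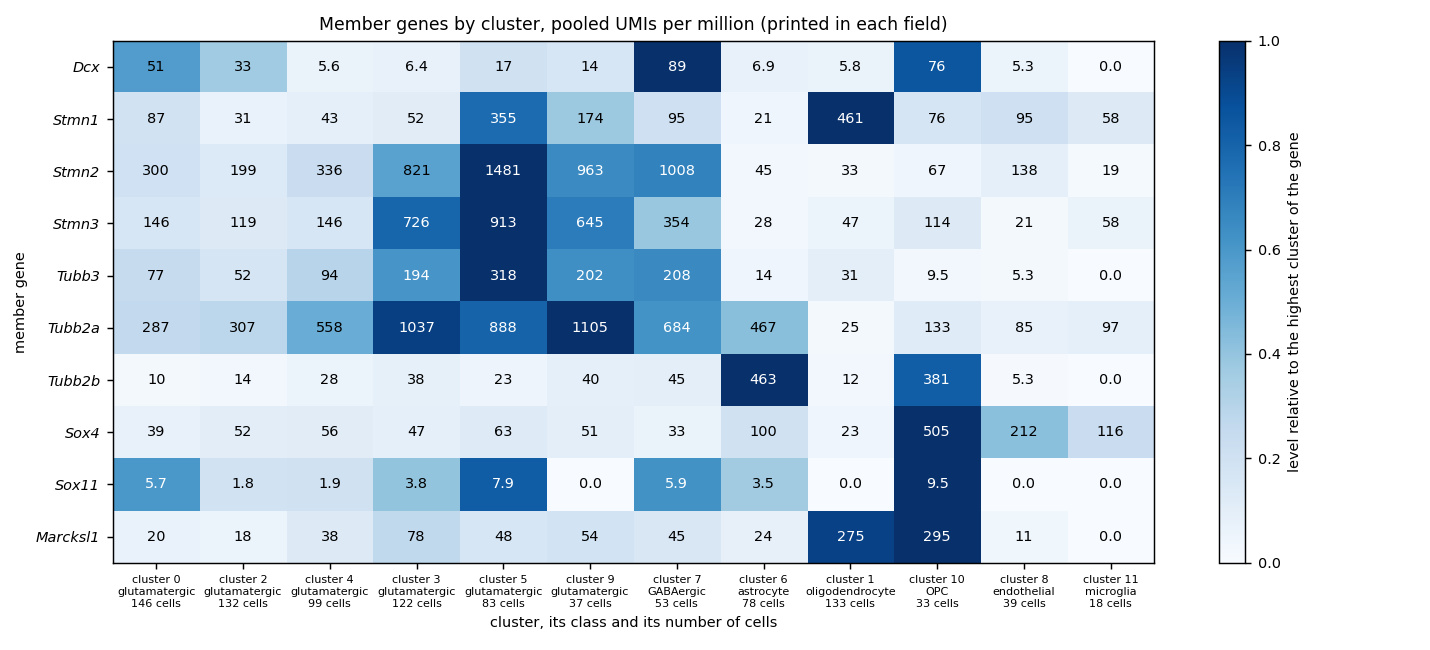
CPM of each gene (rows) in the 12 clusters (columns, with class and number of cells), pooled over mice and printed in each field. Shading is relative to the highest cluster of the gene. Dcx was highest in clusters 7 and 10 and, among glutamatergic-like clusters, in cluster 0, whereas Stmn2, Stmn3 and Tubb3 were highest in cluster 5.

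The clusters also differed in quality and depth. Cluster 0, led by the hemoglobin genes Hba-a1 and Hba-a2, and by Tshz3 and Rxfp1, had a median mt- share of 20.6% and 3826 UMIs per cell, and cluster 2 17.6% and 3620 UMIs. Cluster 5, led by Nts and Slc17a6, had 4.93% and 8509 UMIs, and cluster 3, with the CA1 genes Spink8 and Calb1 among its leaders, 3.27% and 10218 UMIs. The part of mt- share and depth in these levels was not tested. Over 33 profiles of a class in a mouse, which share libraries and depth, the log2 CPM of Stmn2, Stmn3 and Tubb3 correlated with one another at r = 0.75 to 0.80, while Dcx correlated with the other 9 genes at -0.14 to 0.45. Among the genes with the most similar profiles were Resp18 (r = 0.74), Dpp10 and Fam19a2 for Dcx, Pgm2l1 (0.89), Pianp and Celf4 for Stmn2, Ednrb (0.94), Cspg5 and Gm3764 for Tubb2b, Hmgn1 (0.81) and Klhl5 for Sox4, and Htr1a (0.66) and Tmem35 for Sox11. With 25 and 141 UMIs, the profiles of Sox11 and Dcx are too sparse for these values to be read as more than a description.

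Whether Dcx marked cells that carry the other genes was asked in the 72 Dcx-positive and 547 Dcx-negative glutamatergic-like cells. The positive cells were deeper, with a median of 7386 against 4912 UMIs, and they lay more often in clusters 0 (36.1% against 21.9%) and 5 (23.6% against 12.1%) and less often in clusters 4 (4.17% against 17.6%) and 3 (12.5% against 20.7%). At 1500 UMIs per cell, Stmn2 was expected in 51.8, 41.1, 51.6, 70.6 and 71.5% of the positive cells and in 40.0, 34.0, 47.4, 56.7 and 50.5% of the negative cells of mice 1, 2, 4, 5 and 6. The positive cells were higher in 5 of 5 mice, by 11.6 ± 6.49 percentage points (SD). The difference shrank to 3.47 points when negative cells were weighted to the clusters of the positive cells, and to 4.46 points at 3000 UMIs per cell.

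None of the other 8 genes differed between the sets by more than its spread over mice. Tubb2a was expected in 55.6% of positive and 51.1% of negative cells, a difference of 4.53 ± 5.96 points, and the differences were 2.84 ± 5.88 for Stmn3, 2.79 ± 6.29 for Sox4, 2.58 ± 7.55 for Tubb3 and 2.50 ± 4.46 for Stmn1. Tubb2b (0.176 ± 1.95), Sox11 (0.425 ± 0.996) and Marcksl1 (0.118 ± 3.14) differed by less than 1 point, and Marcksl1 was higher in positive cells in 1 of 5 mice. Weighting by cluster turned the difference of Stmn1 to -2.12 points and that of Stmn3 to -3.48 points. At 3000 UMIs per cell it was larger for Stmn1 (5.85), Tubb3 (4.88), Sox4 (4.18), Tubb2b (1.41) and Sox11 (1.16 points). It was smaller for Stmn3 (2.22) and Tubb2a (1.88) and turned to -1.12 points for Marcksl1. No spread over mice was taken at that depth.

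**Figure D4:**
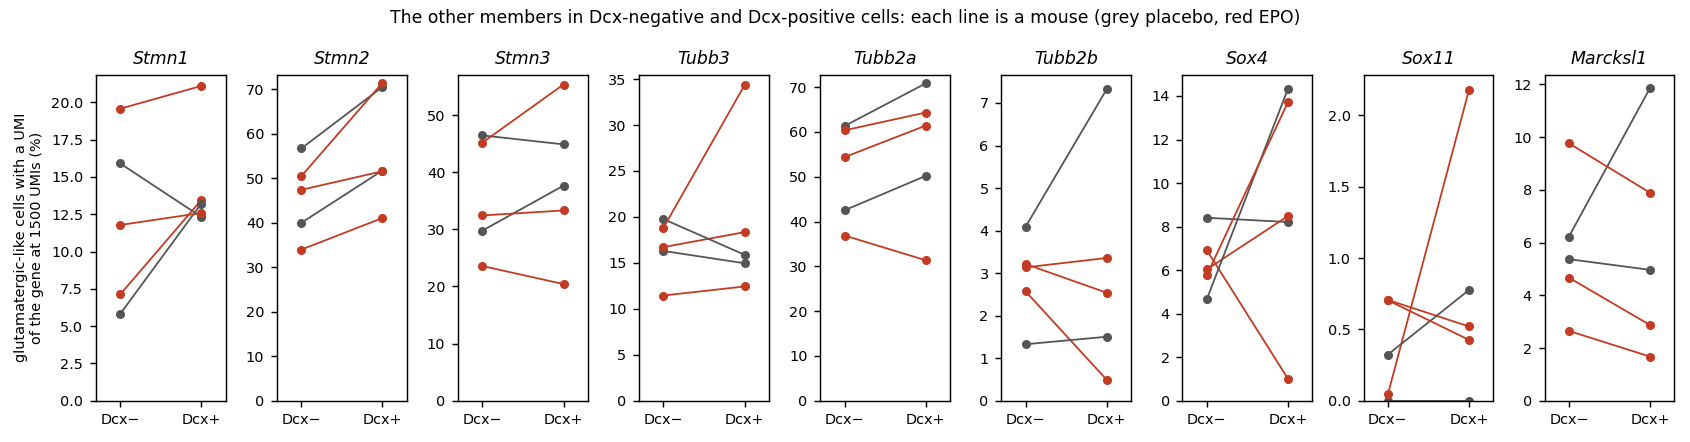
Glutamatergic-like cells with a UMI of each gene at 1500 UMIs per cell (y axis, percent) in Dcx-negative and Dcx-positive cells (x axis). Each line is 1 of 5 mice with at least 5 Dcx-positive cells, grey for placebo and red for EPO. Lines rose for Stmn2 in all 5 mice, and ran in both directions for each of the other genes.

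Tested over summed UMIs with the mouse as a block, 0 of 8 genes were called between Dcx-positive and Dcx-negative cells, where 0.131% of 6122 genes tested were called. At an unadjusted p under 0.05 there was 1, Stmn2 (0.47 on the log2 scale, SE 0.12, adjusted p = 0.20 by edgeR), and no other tool called it. It turned to -0.25 within clusters 0 and 2. The median of the 8 genes was 0.13, beside -0.00 over all genes, and of 19 other microtubule and growth cone genes, 6 relatives and 7 listed genes that the study had picked on these same cells as immature glutamatergic, none was called. Among the 8 genes called, the calcium-binding Necab1 (1.60, SE 0.22), the transcription factor Mef2c (1.57, SE 0.23) and the kinase Camk2d (1.74, SE 0.27) were higher in Dcx-positive cells, and the transcription factor Zbtb20 (-0.89, SE 0.13) and Crym (-0.79, SE 0.14) lower, with adjusted p of 0.00048 to 0.0041, and Pou3f1 came next among the lower genes (-0.81, adjusted p = 0.086). Mef2c and Zbtb20 were among the 10 leading genes of clusters 5 and 4, in which the positive cells were over- and under-represented, and within clusters 0 and 2 Mef2c stood at -0.08. Zbtb20 was called in 14 of 15 alternatives (adjusted p = 0.052 without the shared barcodes of both mice), Necab1 and Camk2d in 12 of 13 (0.063 and 0.60 by limma), Mef2c in 12 of 15 and Crym in 10 of 15 (0.070 without placebo mouse 1, 0.091 without the shared barcodes of both mice). No higher gene was called by limma, after thinning or within clusters 0 and 2, and no lower gene without the shared barcodes of both mice. Necab1 and Camk2d had too few UMIs to be tested after thinning or within clusters 0 and 2.

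Cells carrying several of Dcx, Sox4 and Sox11 were few. Sox11 was seen in 19 cells, 15 of them glutamatergic-like, and in 0 of 133 oligodendrocyte-like cells. Dcx and Sox11 occurred together in 6 cells, Dcx and Sox4 in 27 (22 glutamatergic-like, 4 OPC-like), and all 3 in 2 cells, of EPO mice 2 and 6. The cells of these 3 sets were deep, with medians of 18692.5, 8694 and 16163.5 UMIs, beside 4458 over all retained cells. Of the retained cells, 390 were of placebo and 583 of EPO mice. At least 8 of the 10 genes were seen in 29 cells, and these had a median of 24144 UMIs. All 10 were seen in 1 cell of EPO mouse 6, which had 27030 UMIs. None of the 29 came from placebo mouse 3.

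The 13 listed markers of newborn neurons were mostly as sparse as Sox11. Neurod1, which drives neuronal differentiation, was seen in 21 of 72 Dcx-positive (29.2%) and 95 of 547 Dcx-negative glutamatergic-like cells (17.4%) at these unequal depths, but the summed test gave 0.45 on the log2 scale (SE 0.38, adjusted p = 0.90). Eomes of intermediate progenitors had 7 UMIs in 3 cells, Igfbpl1 6 UMIs in 3 cells and Calb2 20 UMIs, none of them in Dcx-positive glutamatergic-like cells for Eomes and Calb2. Prox1, which marks granule cells of the dentate gyrus, had 223 of its 288 UMIs in oligodendrocyte-like cells and 17 in glutamatergic-like cells. Of the other 5 listed markers of these granule cells, C1ql2 had 18 of 18 UMIs in glutamatergic-like cells, Lct 113 of 118, Tdo2 13 of 24, Dsp 3 of 6 and Stxbp6 35 of 155. Of the 10 listed proliferation genes, Mki67 had 18 of 20, Top2a 21 of 24 and Cdk1 3 of 5 UMIs in OPC-like cells, and Ccnb1 had no UMI. Glutamatergic-like cells held 326 of 516 UMIs of Pcna, 11 of 17 of Mcm2, 8 of 13 of Mcm5, 7 of 13 of Birc5 and 4 of 7 of Ccna2. Each of these shares lay below the 73.4% of the UMIs of all genes that these cells held. Ccnb2 had 2 UMIs.

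The last question was whether the 10 genes differed between mice given rhEPO and mice given placebo. In glutamatergic-like cells, Dcx stood at 25.6, 10.7 and 9.56 CPM in placebo mice 1, 3 and 5, and at 25.4, 24.8 and 12.2 CPM in EPO mice 2, 4 and 6. The groups overlapped, and Dcx in placebo mouse 3 rested on 1 UMI. Without the shared barcodes, Dcx in placebo mouse 1 rose to 36.0 CPM, and the difference of means fell from 5.53 to 2.07 CPM. Stmn2 stood at 729, 492 and 787 CPM against 603, 854 and 917 CPM, and mouse 1 fell to 485 CPM without its shared barcodes. Tubb2a stood at 710, 417 and 804 CPM against 652, 784 and 893 CPM, and mouse 1 at 416 CPM without these barcodes. Sox4 stood at 63.9, 53.5 and 42.1 CPM against 43.8, 48.2 and 60.9 CPM, and Stmn1 at 176, 118 and 44.9 CPM against 65.0, 215 and 145 CPM. The values of both groups overlapped for all 10 genes in this class, where 5.08% of 10852 genes with at least 20 UMIs had each EPO mouse above each placebo mouse and 2.13% had each below.

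**Figure D5:**
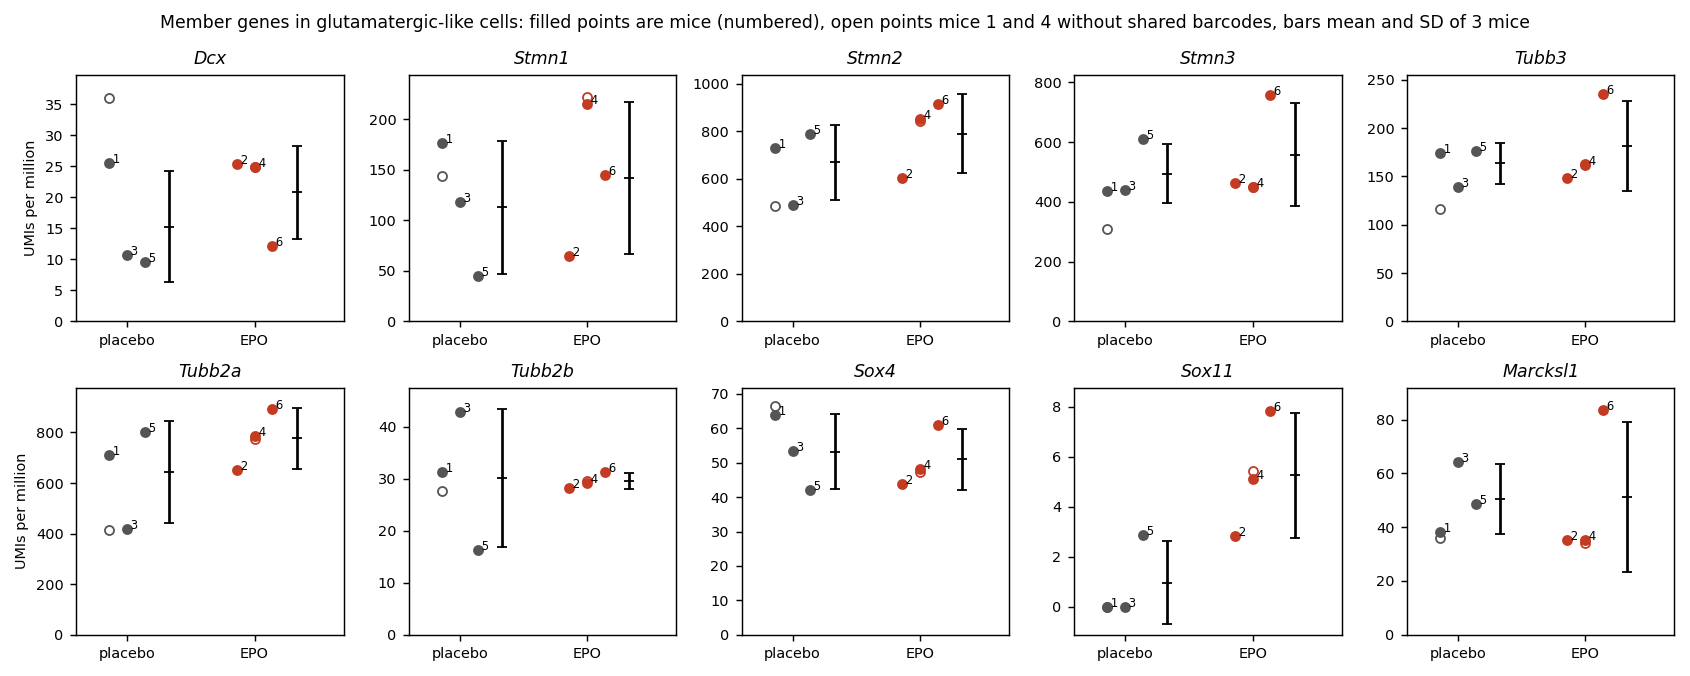
CPM (y axis) of each gene in glutamatergic-like cells of placebo and EPO mice (x axis). Filled points are mice, labelled by number, open points are mice 1 and 4 without the barcodes they share, and bars give the mean and SD of 3 mice. The groups overlapped for each gene. Without its shared barcodes, Stmn2 and Tubb2a of placebo mouse 1 dropped and its Dcx rose.

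In glutamatergic-like cells 0 of 9 genes tested were called by edgeR, and so were 0% of 8522 genes tested, with 158 genes but none of these 9 at an unadjusted p under 0.05 (DESeq2 and limma 0 calls). The log2 fold changes ran from -0.09 for Sox4 (SE 0.29) to 0.31 for Dcx (SE 0.50), with a median of 0.16 beside 0.00 over all genes, and adjusted p of 0.9997. Over all retained cells 0 of 9 genes were called either, beside 0% of 10043 genes tested, with 127 genes and none of the 9 at an unadjusted p under 0.05 (DESeq2 1 call, limma 0). There Dcx was at 0.51 (SE 0.41), Stmn2 at 0.35 (SE 0.35) and Marcksl1 at -0.27 (SE 0.32). In sums over all cells, fewer cells of a type and less RNA per cell cannot be told apart. SEs of 0.21 to 0.50 in glutamatergic-like cells leave changes of the size of these estimates undetectable with 3 mice a group.

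Sox11 had too few UMIs for this test. Over all retained cells it had 1, 0 and 3 UMIs in placebo mice 1, 3 and 5 (0.889, 0 and 2.32 CPM) and 3, 9 and 9 UMIs in EPO mice 2, 4 and 6 (3.16, 4.62 and 6.49 CPM). Each EPO mouse lay above each placebo mouse, which holds for 4.15% of the 12296 genes with at least 20 UMIs, while the opposite holds for 2.23% of them and for none of the 10 genes. The difference of means was 3.69 CPM (two-sided exact permutation p = 0.1, the smallest that 3 against 3 mice allow). A count of 0 in placebo mouse 3 allows up to 14.7 CPM, above every EPO value, and within glutamatergic-like cells placebo mouse 5 (2.87 CPM) lay above EPO mouse 2 (2.82 CPM).

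The Dcx-positive share of glutamatergic-like cells did not separate the treatments. At 1500 UMIs per cell it was expected to be 5.22, 4.26 and 1.88% in placebo mice 1, 3 and 5, and 5.05, 4.03 and 2.25% in EPO mice 2, 4 and 6. This averaged 3.79 ± 1.72% in placebo and 3.77 ± 1.42% in EPO mice (SD, 3 mice a group), which differed by -0.01 points (two-sided exact permutation p = 1). With all UMIs of each cell the shares were 15.6, 6.25 and 5.84% against 12.7, 13.9 and 12%, a difference of 3.66 points (exact permutation p = 0.4), where placebo mouse 3 had 1 positive among 16 cells. Within D1 and D2 the difference at 1500 UMIs averaged 0.782 points.

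The gene lists around the 10 genes gave the same picture between treatments. In glutamatergic-like cells none of 9 relatives, 20 other microtubule and growth cone genes, 3 newborn neuron markers and 6 CA1 pyramidal markers was called, with medians of 0.04, 0.01, -0.29 and 0.03 on the log2 scale. The 10 genes that the study chose as markers of immature glutamatergic cells, Dcx and Sox5 among them, had a median of 0.21 with 9 of 10 above 0 and 0 called, and since they were picked on these same cells their direction is not independent evidence. The chromatin organiser Satb1 had the smallest p of that list (0.59, SE 0.26, adjusted p = 0.9997 by edgeR).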

How the data were processed

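Each cell barcode's UMI count per gene was deposited by the authors as raw counts in 1 table, 1000 barcodes per mouse, with missing values for genes without a UMI in a mouse, which were set to 0. The submitters' processing notes name bcl2fastq 2.15, STAR 2.4.0 and mm10. Barcodes with over 1000 and up to 8000 genes and at most 40% UMIs of 27 mt- genes were retained. Cells were clustered in Seurat 5.3.0 (R 4.3.3) on 1000 variable genes per treatment without the 10 genes, integrated by canonical correlation on 20 dimensions at resolution 1, and each cluster took the class with the highest z-scored markers, with at least 3 markers in at least 10% of its cells. Scrublet (scanpy 1.11.5) called 18.6% of the cells of placebo mouse 3 and 0.369 to 4.05% elsewhere, and doublets were kept.

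UMIs were summed per mouse, or per mouse and class where a mouse had at least 5 cells of it. edgeR 4.0.16 (quasi-likelihood F test, TMM scaling, filterByExpr with at least 10 UMIs per library and 15 in all) gave p-values, adjusted by Benjamini-Hochberg over all genes tested, with a threshold of 5%. Comparisons of classes or of Dcx-positive and Dcx-negative cells took the mouse as a block. SEs were derived from the F statistic. A mouse is the replicate. Dcx-positive means at least 1 Dcx UMI, and shares at 1500 UMIs per cell are the exact expectation under random thinning. Intervals are Clopper-Pearson (95%), and a count of 0 is taken to allow 3 counts. Profiles were compared over log2 CPM with 20 CPM added, among genes with at least 200 UMIs. Alternatives used DESeq2 1.42.0, limma 3.58.1, other scaling, no filter, other cell filters, depths and clusterings, the D number, and each mouse left out. The tests across genes were checked on simulated counts. Positions are from GENCODE M21.

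The 10 genes, the lists and the tests were chosen with earlier results of these data known. Named were the 10 genes, up to 4 genes per list with the smallest p, up to 3 of the most similar genes for 5 of the 10, and the 3 genes per direction with the smallest p between Dcx-positive and Dcx-negative cells. Cluster leaders and rare markers were named beside the values they touch. A few genes that these rules would name are not reported here.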

Additional observations from a re-analysis of the deposited data

Results flagged for a closer look

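Values that stood apart from the other mice of a class were found in 9 of 48 groups of a gene in a class. Chance flags about 1 in 20 groups of continuous values, but 6 of the 9 had 1 or 2 UMIs in 1 mouse and none in the others, which stand apart by construction, so the 9 are not set against that rate. In endothelial-like cells, with 39 cells in all, Dcx was counted in EPO mouse 6 only (1 UMI, 59.2 CPM), and placebo mouse 1 was the only mouse with Tubb3 (1 UMI, 19.9 CPM), Tubb2b (1 UMI, 19.9 CPM) and Marcksl1 (2 UMIs in 1 cell, 39.8 CPM) and was far above the rest for Stmn1 (219 CPM). Placebo mouse 1 also stood apart for Stmn2 in oligodendrocyte-like cells (84.4 CPM) and, with 1 UMI, for Sox11 in astrocyte-like cells (14.1 CPM). EPO mouse 4 stood apart in GABAergic-like cells for Stmn1 (196 CPM) and, with 2 UMIs in 2 cells, for Sox11 (15.7 CPM). Placebo mouse 1 and EPO mouse 4 are the mice that share barcodes. Without these, Stmn2 in oligodendrocyte-like cells of placebo mouse 1 stood at 85.8 CPM. The part of the shared barcodes in the other values was not tested.

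For 3 genes, the EPO mice all lay on one side of the placebo mice in D1 and on the other side in D2, which was not tested and rests on 3 mice each. Differences of means changed sign between D1 and D2 for further genes, where single mice overlapped. Over all cells it was -173 CPM in D1 and 152 CPM in D2 for Stmn1, -37.3 and 25.2 CPM for Tubb2b, and -9.0 and 13.2 CPM for Sox4. In glutamatergic-like cells it was -82.0 and 135 CPM for Stmn1, -8.79 and 14.0 CPM for Tubb2b, and -14.9 and 12.5 CPM for Sox4. D1 holds 1 EPO mouse and D2 holds 1 placebo mouse.

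The 5027 barcodes left out of the comparisons held 2333 UMIs of the 10 genes, 47 of them of Dcx.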

How the results depend on the processing

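Counts of called genes moved most without the filter on low counts, where more genes were tested: 5294 between glutamatergic-like and oligodendrocyte-like cells (3062 with it), 1274 between GABAergic-like and glutamatergic-like cells (784), 33 between Dcx-positive and Dcx-negative cells (8), 52 for EPO over all cells (0) and 11 in glutamatergic-like cells (0). limma called 377 between the neuronal classes and 1 between Dcx-positive and Dcx-negative cells. The latter count was 2 after thinning to 1500 UMIs, 2 within clusters 0 and 2, 5 and 3 without the shared barcodes of EPO mouse 4 or of both mice, and 4 to 12 when a mouse was left out, the lowest without placebo mouse 1. For EPO over all cells, DESeq2 and the D number as a covariate gave 1 call each, and in glutamatergic-like cells leaving out a mouse gave 0 to 7, the highest without placebo mouse 5. The difference in Dcx-positive share turned positive at 3000 UMIs (2.36 points), without thinning (3.66), over all retained cells (1.40), without the shared barcodes of EPO mouse 4 (0.0564) and within D1 and D2 (0.782), and ran from -0.963 to 0.751 when a mouse was left out (0.704 without placebo mouse 1, 0.222 without placebo mouse 3, 0.751 without EPO mouse 6). The causes of these moves were not tested.

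On the log2 scale, differences that changed sign were those of genes not called, save Mef2c. Between GABAergic-like and glutamatergic-like cells the sign changed without integration Stmn2 (0.42), by limma Tubb3 (-0.24), Tubb2b (-0.78), without the filter Tubb3 (-0.25) and without the shared barcodes of both mice Marcksl1 (0.061). Leaving out a mouse in turn gave Stmn2 (-0.89 to 0.011), Tubb3 (-0.29 to 0.29), Marcksl1 (-0.41 to 0.13). Between Dcx-positive and Dcx-negative cells the sign changed within clusters 0 and 2 Stmn2 (-0.25), Stmn3 (0.031), Tubb3 (-0.20), Sox4 (-0.29), Mef2c (-0.084), by DESeq2 Stmn3 (0.020), Marcksl1 (0.043), by limma Stmn3 (0.010), Marcksl1 (0.070), with RLE scaling Stmn3 (0.018), without those of EPO mouse 4 Stmn3 (0.0071), Marcksl1 (0.037), without the filter Tubb3 (-0.0048), after thinning Tubb3 (-0.77) and without the shared barcodes of both mice Tubb2a (-0.016). Leaving out a mouse in turn gave Stmn3 (-0.044 to 0.036), Tubb2b (-0.59 to 0.16), Sox4 (-0.25 to 0.69), Marcksl1 (-0.17 to 0.24). For EPO over all cells the sign changed with the D number Stmn1 (0.15), Tubb2b (0.12), Sox4 (0.062), at 10% mt- UMIs Tubb2b (0.092) and without called doublets Sox4 (0.039). Leaving out a mouse in turn gave Stmn1 (-0.88 to 0.29), Stmn3 (-0.0064 to 0.63), Tubb2b (-0.71 to 0.17), Sox4 (-0.33 to 0.18), Marcksl1 (-0.48 to 0.054). For EPO in glutamatergic-like cells the sign changed by limma Marcksl1 (-0.12). Leaving out a mouse in turn gave Dcx (-0.26 to 1.10), Stmn1 (-0.23 to 1.25), Stmn3 (-0.097 to 0.24), Tubb3 (-0.093 to 0.14), Tubb2a (-8.2e-06 to 0.30), Tubb2b (-0.27 to 0.58), Sox4 (-0.37 to 0.21), Marcksl1 (-0.36 to 0.31).

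No paired analysis was possible because the labels give no replicate number to both a placebo and an EPO mouse. Thinning before calling Dcx left under 3 mice with 5 positive cells, and leaving out a mouse of the 3 with OPC-like cells left under 3, so neither was run. The settings on shared barcodes and on clusters 0 and 2 were chosen after seeing the data. The main limits are depth and number: Dcx and Sox11 rest on 141 and 25 UMIs, placebo mouse 3 has 43 cells, and 3 mice a group cannot give an exact p under 0.1.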
